A study of Mus musculus with 9 samples.

Results

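Kruppel-like factors are zinc finger proteins that bind GC-rich and CACCC-type DNA and either activate or repress nearby genes. The genes described here are the 9 family members Klf2, Klf3, Klf4, Klf6, Klf7, Klf9, Klf10, Klf11 and Klf13, picked by gene symbol from the 52183 genes of an expression table of mouse bone marrow endothelium. All 9 were found once each, and all 9 were among the 11796 genes that averaged 1 FPKM or more and were tested. FPKM scales the fragments of a gene by its length and by the size of the library.

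In vessel-lining cells, laminar blood flow acts through the kinases MEKK3, MEK5 and ERK5 and through MEF2 transcription factors to switch on Klf2 and Klf4. Both are known for holding the endothelium in a quiescent, anticoagulant and anti-inflammatory state, with thrombomodulin and endothelial nitric oxide synthase among the genes they raise and adhesion molecules and endothelin among those they lower. Klf6 and Klf10 are rapidly inducible, Klf10 and Klf11 respond to transforming growth factor beta, Klf9 responds to glucocorticoid and thyroid hormones, and Klf3 represses its targets through the corepressor CtBP.

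The libraries came from 3 groups of 3: control mice aged 3 months (young controls), control mice aged 18 months (aged controls) and mice aged 18 months whose genotype label is Thbs1 knockout. Thbs1 is the gene for thrombospondin-1. All mice received an antibody to VE-cadherin in the circulation shortly before they were killed, and endothelial cells were then sorted from long bone marrow by flow cytometry. The labels give no strain, no description of the altered allele and no sex, and they do not say whether a library is 1 mouse or a pool. The p-values therefore measure the spread between these libraries, which may be partly technical.

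Depth recovered from the values was 22160000 to 24590000 fragments in the controls and 27230000 to 30400000 in the knockout-labelled libraries. Genes listed above 0 numbered 25153 to 26391 in young controls, 20728 to 22119 in aged controls and 21844 to 24564 in the knockout-labelled libraries. The targeted gene went against its label, with Thbs1 at 3.89 to 4.55 FPKM in young controls, 0.67 to 1.17 FPKM in aged controls and 19.45 to 25.63 FPKM in the knockout-labelled libraries, so the third group is called by its label throughout. The cells carried endothelial RNA, with all 12 pan-endothelial markers above the filter. Their summed level was 2150 to 2180 FPKM in young and 2390 to 2500 FPKM in aged controls. It was 2070 to 2220 FPKM in the knockout-labelled libraries, so the aged controls lay above both other groups in this sum. Single markers went both ways, with a positive log2 difference with age for 5 of the 12 and a negative one for 7, so the sum does not describe most of them. Cldn5, the most abundant of the 12 in each group, averaged 484, 810 and 476 FPKM in the same order of groups, and Erg 14.4, 9.28 and 12.8 FPKM. The leukocyte marker Ptprc reached 0.03 to 0.13 FPKM. Summed T and NK cell markers stayed between 0.31 and 1.64 FPKM. Other blood cell markers were higher. In the same order of groups, monocyte and macrophage markers summed to 22.5 to 45.1, 30.9 to 44.7 and 17.8 to 36.7 FPKM. Megakaryocyte and platelet markers summed to 25.1 to 28.8, 23.7 to 34.7 and 20.9 to 35.2 FPKM. Erythroid markers summed to 154 to 164, 108 to 232 and 89.4 to 199 FPKM. Stromal, osteoblast and adipocyte markers summed to 34.3 to 58.5 FPKM in young controls, 15.4 to 18.8 FPKM in aged controls and 15.4 to 22.8 FPKM in the knockout-labelled libraries, with 3 of 6 markers above the filter. Sinusoidal markers summed to 702 to 759, 925 to 1090 and 623 to 798 FPKM in the same order, with 5 of 5. They did not move alike. Fcgr2b averaged 117, 304 and 90.2 FPKM, Dnase1l3 90.9, 148 and 89.9 FPKM and Flt4 133, 173 and 152 FPKM. Stab1 averaged 72.6, 75.7 and 73.8 FPKM and Stab2 319, 286 and 310 FPKM. B-lineage markers summed to 3.24 to 40.2, 23.8 to 81.6 and 2.78 to 31.3 FPKM, with 3 of 6 above the filter. Smooth muscle and pericyte markers summed to 10 to 13.5 FPKM in young controls, 3.09 to 6.7 FPKM in aged controls and 1.26 to 7.2 FPKM in the knockout-labelled libraries, with 2 of 5 above the filter. Neutrophil markers ranged from 5.24 to 110 FPKM, from 11.4 to 197 FPKM and from 24.8 to 103 FPKM in the same order, with 6 of 6. The part of these differences, and of the numbers of genes listed above 0, in the results below was not tested. In bulk RNA, fewer cells of a type and less RNA per cell cannot be told apart.

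The sequence upstream of Klf2 and of Klf4 is shown because these are the flow-responsive pair and because Klf2 was the most abundant member. Both stretches run from 250 to 51 bases before the RefSeq start site (GRCm38.p6), 5′ to 3′ on the strand of the gene. They lie at chr8:72318812-72319011 on the plus strand for Klf2 and at chr4:55532526-55532725 on the minus strand for Klf4. Capitals mark a match to a MEF2-type pattern, which is CTA, any 4 bases and TAG. In its 4 middle bases this pattern is looser than the core that MEF2 factors recognise. Its outer bases are fixed as C and G, so sites with other outer bases were not counted.
Klf2: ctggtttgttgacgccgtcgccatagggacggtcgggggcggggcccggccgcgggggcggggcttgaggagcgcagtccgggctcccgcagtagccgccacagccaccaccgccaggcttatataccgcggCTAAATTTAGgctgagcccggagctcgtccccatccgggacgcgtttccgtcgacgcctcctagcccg
Klf4: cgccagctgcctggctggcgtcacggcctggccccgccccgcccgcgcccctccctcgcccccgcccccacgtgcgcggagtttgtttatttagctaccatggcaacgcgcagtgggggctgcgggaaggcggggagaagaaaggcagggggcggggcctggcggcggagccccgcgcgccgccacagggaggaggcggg
The Klf2 window held 1 match, CTAAATTTAG, which begins 118 bases before the start site. Both strands of the 300-base RefSeq windows, from 250 bases before to 50 after the start, were searched. The MEF2-type pattern was found in 1 of the 8 members that had a window and in 3.69% of all 32851 windows. The palindromic pattern reads the same on both strands. CACCC, the box that the family itself binds, was found in 5 of the 8 windows and in 57.5% of all windows. The cyclic AMP response element TGACGTCA was in 0 of the 8 windows and in 1.79% of all, and GGGA followed by any 4 bases and CC, an NF-kB-type pattern, was in 3 of the 8 (Klf3, Klf4 and Klf11) and in 20.7% of all. A match describes letters only and is not a binding site. The windows of the 8 members held 58.3% (Klf7) to 77.7% (Klf11) G and C, against a median of 52.7% over all windows.

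Klf2 was the most abundant member in every library, and no library of another member reached its lowest value. Its mean was 380.9 ± 18.5 FPKM in young controls, 446.2 ± 29.8 FPKM in aged controls and 533.5 ± 43.2 FPKM in the knockout-labelled libraries (SD, n = 3 each). Over the 9 libraries it averaged 454.0 FPKM, with only 76 of the 11796 tested genes higher. Klf6 and Klf4 followed at 115.0 and 104.0 FPKM, at the 96.3 and 95.9 percentiles of tested genes, and Klf10 at 55.1 FPKM. The other 5 lay between 9.79 FPKM (Klf7) and 19.3 FPKM (Klf3). Each value rested on many fragments, from 1230 in the thinnest library of Klf9 to 31900 in the fullest library of Klf2.

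The order of the levels was the same at the top and bottom of the family and less clear in between. Klf2 came first, Klf10 next after Klf4 and Klf6, and Klf7 last in all 3 groups. The places after Klf2 were held by Klf6 and then Klf4 in both control groups, with overlapping ranges in young controls and separate ranges in aged controls, and by Klf4 and then Klf6 in the knockout-labelled libraries, where the ranges overlapped. Klf9, Klf3, Klf11 and Klf13 stood close together. In the aged controls every neighbouring pair from Klf3 down to Klf7 overlapped, while in young controls only Klf9 and Klf3 did so among these.

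**Figure D1:**
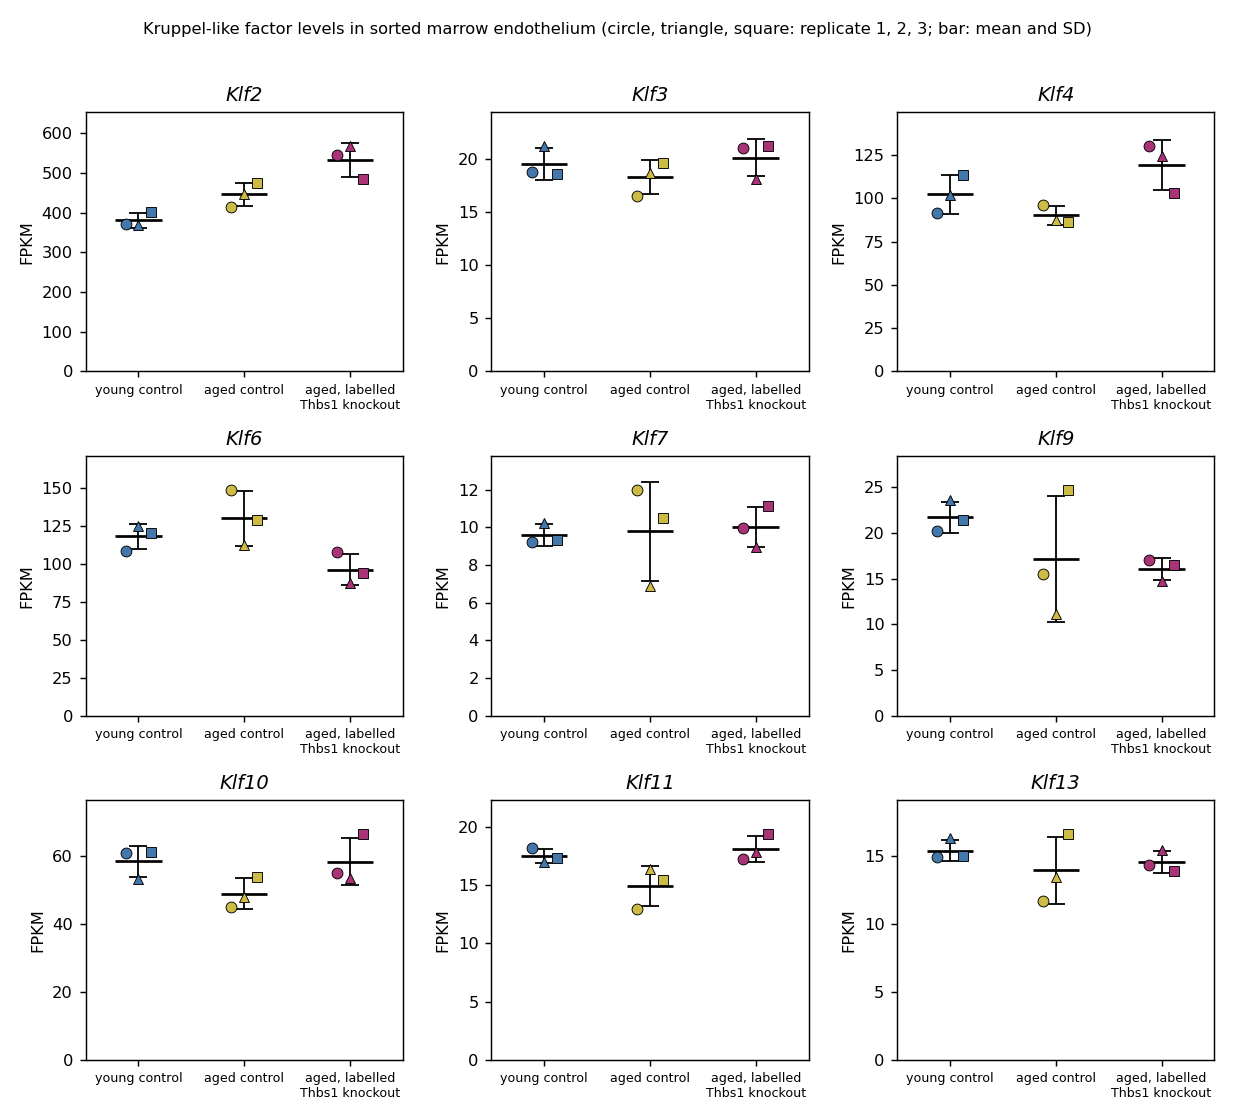
FPKM of the 9 genes in each library, 1 panel per gene with its own axis from 0; circles, triangles and squares are replicates 1, 2 and 3, the horizontal bar is the mean and the whiskers the SD (n = 3). Klf2 lies lowest in young controls (367.98 to 402.14) and highest in the knockout-labelled libraries (485.4 to 568.84), and Klf9 is widest in aged controls (11.17 to 24.72).

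Summed over the 9 genes, the level was 714.7, 736.6 and 779.0 FPKM in young controls, 774.0, 763.0 and 830.5 FPKM in aged controls, and 918.6, 909.5 and 830.7 FPKM in the knockout-labelled libraries. Klf2 alone made up 52.1%, 50% and 51.6% of that sum in young controls, 53.7%, 58.8% and 57.2% in aged controls, and 59.5%, 62.5% and 58.4% in the knockout-labelled libraries. Its share in young controls lay below that in every other library, and the ranges of the 2 groups aged 18 months overlapped. Klf6 held 15.2% to 17.0%, 14.7% to 19.2% and 9.6% to 11.7% in the same order of groups, so its share in the knockout-labelled libraries was below that in all controls. The shares of 1 library add up to the whole, so a larger share of Klf2 lowers the others.

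**Figure D2:**
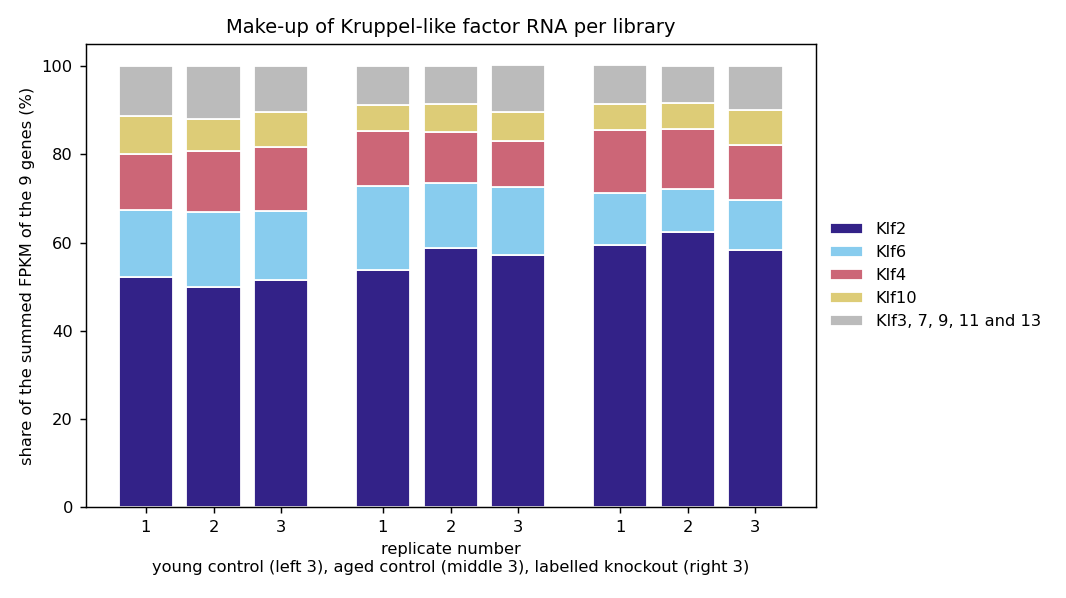
Share of the summed FPKM of the 9 genes held by each of the 4 most abundant members and by the other 5 together (y axis, percent), for each library on the x axis. Klf2 takes 50% to 52.1% in young controls and 58.4% to 62.5% in the knockout-labelled libraries, and Klf6 is smallest in the latter.

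Between the ages, 3 and 18 months in controls, no member passed the test. Klf2 read 372.66, 367.98 and 402.14 FPKM in young controls and at 415.38, 448.29 and 474.82 FPKM in aged controls. All aged libraries were above all young ones, but the difference, 0.23 ± 0.0976 (SE) in log2(FPKM + 1), did not pass (limma adjusted p = 0.168, 95% interval 0.01 to 0.44). Klf11, which can repress transcription in response to transforming growth factor beta, was at 18.18, 16.96 and 17.37 FPKM in the young and 12.98, 16.35 and 15.43 FPKM in aged controls. Its groups did not overlap either, with the aged controls lower by a difference of -0.22 ± 0.102 (adjusted p = 0.19). Klf10, the related transforming growth factor beta inducible gene, was at 60.78, 53.12 and 61.02 FPKM and then 44.86, 47.86 and 53.69 FPKM. Those ranges touched, since the highest aged library lay just above the lowest young one (difference -0.25 ± 0.113, adjusted p = 0.181).

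The remaining members overlapped between the ages. Klf4 was at 91.33, 102.01 and 113.67 FPKM in the young and 96.23, 87.71 and 86.32 FPKM in aged controls (difference -0.18, 95% interval -0.44 to 0.08). Klf6, an inducible factor known from vascular injury, was at 108.71, 125.16 and 120.44 FPKM and 148.77, 112.52 and 128.72 FPKM (difference 0.13, interval -0.14 to 0.41). Klf9 had the widest spread of the family, with 15.50, 11.17 and 24.72 FPKM in aged controls against 20.17, 23.58 and 21.38 FPKM in the young. The aged replicate 3 was above every young library and the other two were below them all. The interval of its difference ran from -0.88 to 0.10, and without aged control replicate 3 the difference was -0.68 in place of -0.39 (adjusted p = 0.0592 against 0.275), while without aged control replicate 2 it was -0.14. Klf3, Klf7 and Klf13, broadly expressed members, differed by -0.09, 0.00 and -0.15, with intervals of -0.32 to 0.14, -0.38 to 0.37 and -0.42 to 0.12.

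With limma, 0 of the 9 members passed at an adjusted p under 0.05, where 3.99% of all tested genes did. At an unadjusted p under 0.05 there were 1 higher (Klf2) and 1 lower (Klf10), against 10.2% and 17.4% of all tested genes, and limma voom on recovered fragments gave 1, Klf2, with 0 after adjustment. The 3 libraries of each group did not overlap for 1 member that was higher and 1 that was lower, while 13.9% of all tested genes were higher and 21.8% lower in this way. The median difference of the members was -0.147, beside -0.045 over all tested genes. A two-sided exact permutation test cannot go below p = 0.1 with 3 against 3 libraries.

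**Figure D3:**
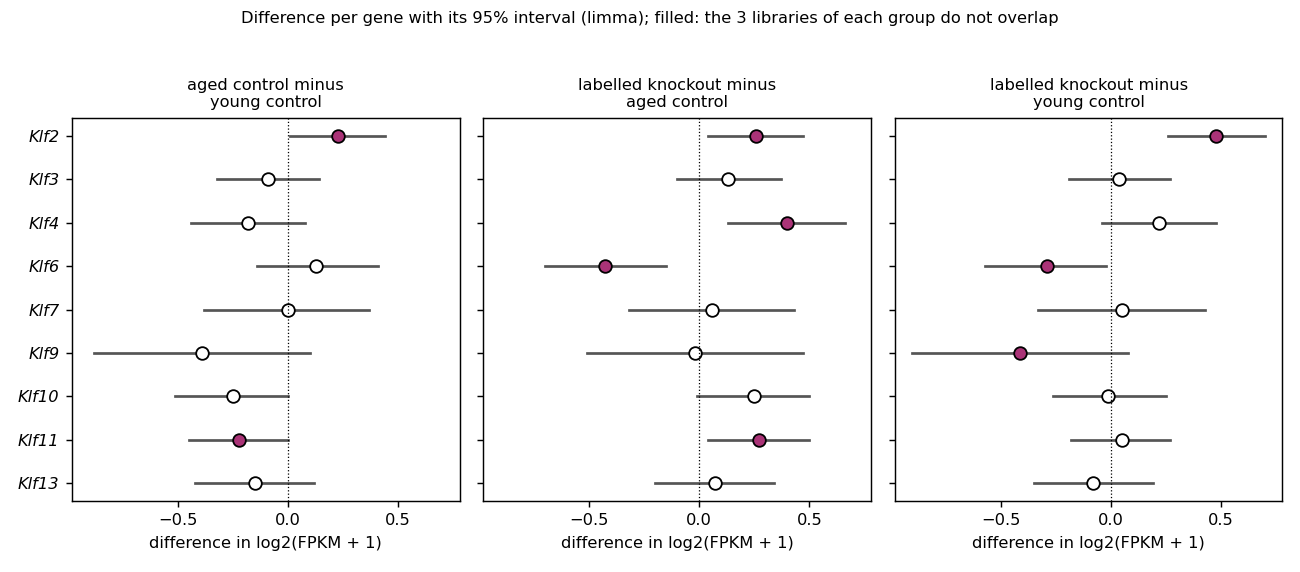
Difference in log2(FPKM + 1) for each of the 9 genes (y axis) in the 3 comparisons, as a point with its 95% interval from limma; filled points mark genes whose 3 libraries per group do not overlap. Klf2 is to the right of 0 in each panel, Klf4 (0.40) and Klf6 (-0.43) lie farthest from 0 between the groups aged 18 months, and no gene passes after adjustment.

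At 18 months the label separates knockout from control, and again no member passed. Klf4 and Klf6 came nearest, with differences of opposite sign. Klf4 was at 130.34, 124.42 and 103.08 FPKM against 96.23, 87.71 and 86.32 FPKM in aged controls, with every labelled knockout library above every aged control. Its mean was 119.3 ± 14.3 against 90.09 ± 5.37 FPKM (SD, n = 3), a ratio of 1.32 and a difference of 0.40 ± 0.117 (SE, limma adjusted p = 0.083, 95% interval 0.13 to 0.66). Under quantile normalization the adjusted p was 0.0496, and it was 0.0496 to 0.265 over the 19 alternatives. Klf6 was at 107.63, 87.52 and 93.69 FPKM against 148.77, 112.52 and 128.72 FPKM, with every labelled knockout library lower. The ratio was 0.741 and the difference -0.43 ± 0.123 (adjusted p = 0.0786, interval -0.70 to -0.15, adjusted p over the alternatives 0.0515 to 0.226).

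Klf2 and Klf11 also did not overlap between these groups. Klf2 was at 546.25, 568.84 and 485.40 FPKM, above the aged controls, with a difference of 0.26 ± 0.0976 (adjusted p = 0.15, interval 0.04 to 0.47). The margin was narrow, with the lowest labelled knockout library at 485.40 and the highest aged control at 474.82 FPKM. Klf11 was at 17.20, 17.81 and 19.38 FPKM, with a difference of 0.27 ± 0.102 (adjusted p = 0.147). Klf10 was at 54.84, 53.56 and 66.31 FPKM and overlapped the aged controls by a sliver at 53.56 against 53.69 FPKM (difference 0.25, interval -0.01 to 0.50). The interval of Klf9 was wide, from -0.51 to 0.47 around a difference of -0.02, with the knockout-labelled libraries at 17.02, 14.74 and 16.54 FPKM. For Klf3, Klf7 and Klf13 the differences were 0.13, 0.06 and 0.07, and their intervals, -0.10 to 0.37, -0.32 to 0.43 and -0.20 to 0.34, included 0.

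No member passed after adjustment (0 of 9 by limma and 0 by limma voom), where 4.79% of all tested genes did. At an unadjusted p under 0.05, 3 members were higher (Klf2, Klf4 and Klf11) and 1 lower (Klf6), by both limma and limma voom, against 12.7% and 11.3% of all tested genes. The same 3 and 1 were the members whose groups did not overlap, where 12.1% of all tested genes were higher and 11.1% lower. The median difference was 0.133 beside 0.002 over all tested genes. Knockout-labelled replicate 2 stood apart from replicates 1 and 3 in several genes. Among them were the water channel Aqp1, at 781.37 against 322.97 and 334.73 FPKM, and the sinusoidal marker Fcgr2b, at 180.85 against 41.97 and 47.76 FPKM. Edn1, the endothelin gene, was lower there, at 1.34 against 5.02 and 4.58 FPKM. Without replicate 2 the differences were 0.21 for Klf2, 0.36 for Klf4, -0.36 for Klf6 and 0.28 for Klf11, with limma adjusted p of 0.216, 0.115, 0.117 and 0.154.

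The knockout-labelled libraries and the young controls differ in age and label together. Klf2 had the smallest unadjusted p of the family here (0.000614), with a difference of 0.48 ± 0.0976 (SE), a ratio of 1.40 and a 95% interval of 0.26 to 0.70. Ranked by p it was number 58 of 11796 genes, while 25 genes, or 0.212% of those tested, were called, and its limma adjusted p was 0.125. The 3 knockout-labelled libraries were all above the 3 young controls, and over the 19 alternatives the difference was 0.42 to 0.55 with an adjusted p of 0.103 to 0.61. Klf6 and Klf9 were lower without overlap, by -0.29 (interval -0.57 to -0.02, adjusted p = 0.504) and -0.41 (interval -0.90 to 0.08, adjusted p = 0.614). Klf4 was 1.17 times its young mean and overlapped it. Klf10, at a ratio of 0.999, had an interval of -0.26 to 0.25. In all 0 of 9 members passed with limma or limma voom, and 1 higher (Klf2) and 1 lower (Klf6) had an unadjusted p under 0.05 by both, against 3% and 6.27% of tested genes. Without overlap there were 1 higher and 2 lower members, against backgrounds of 8.46% and 14%. All 3 comparisons share libraries with one another, so their values are not independent.

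Among the other KLF and SP genes, 8 of 17 passed the filter. Of these 1 was called, in the knockout-labelled libraries against the aged controls, where 4.79% of all tested genes were. With age 0 of the 8 were called, where 3.99% of all tested genes were. Klf5, a factor tied to vascular remodelling and proliferation, was at 0.52, 1.24 and 1.11 FPKM in aged controls and rose to 2.80, 2.47 and 1.81 FPKM in the knockout-labelled libraries (difference 0.789 ± 0.181 SE, limma adjusted p = 0.0389). That result was lost in 8 of the 9 leave-one-out fits. The young controls had 1.68 to 1.91 FPKM of Klf5. The ubiquitous factors Sp1, Sp2 and Sp3 averaged 8.33, 12.9 and 20.2 FPKM in young controls, 7.69, 15.0 and 14.6 FPKM in aged controls and 6.96, 12.4 and 16.2 FPKM in the knockout-labelled libraries. Klf12, Klf15, Klf16 and Sp4 were at means of 0.743 to 5.04 FPKM, with none called. In the aged against the young controls the log2 difference was negative for 6 of these 8 and positive for 2, with a median of -0.424 beside -0.045 over all tested genes.

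Upstream genes were looked at in a list of 17 that holds the flow sensors, the MEK5, ERK5 and MEF2 steps and the CCM complex, an adaptor complex that restrains MEKK3. All 17 were tested and 0 were called in any comparison by limma. Among all tested genes the share called was 3.99% with age. It was 4.79% in the knockout-labelled libraries against the aged controls and 0.212% against the young controls. Mapk7, the gene for ERK5, was at 6.49, 6.72 and 7.11 FPKM in young controls, 4.54, 6.17 and 7.43 FPKM in aged controls, and 6.91, 6.23 and 7.50 FPKM in the knockout-labelled libraries, with full overlap. Mef2c was at 10.88 to 11.72, 7.43 to 8.70 and 7.20 to 9.91 FPKM. Its aged controls lay below all young ones (difference -0.405 ± 0.122 SE, adjusted p = 0.0795). Of the 17 genes 16 had a negative log2 difference with age, with a median of -0.256 beside -0.045 over all tested genes. At an unadjusted p under 0.05, 7 of the 17 were lower, where 17.4% of all tested genes were. After median-ratio scaling 14 were lower and 3 higher. Against the aged controls all 17 were higher in the knockout-labelled libraries (median 0.187, beside 0.002 over all tested genes), also after median-ratio scaling and quantile normalization. Of these 3 had an unadjusted p under 0.05, where 12.7% of all tested genes were higher at that level. The aged controls enter both comparisons, so the 2 counts do not stand apart from each other.

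Genes that Klf2 or Klf4 are known to raise pointed both ways. Of 13 in the list 11 were tested, with a positive log2 difference with age for 7 and a negative one for 4, and only Aqp1 was called. It rose with age from 349.88, 447.95 and 399.51 FPKM to 1049.83, 1300.73 and 953.04 FPKM (difference 1.46 ± 0.296 SE, limma adjusted p = 0.0374) and fell in the knockout-labelled libraries (difference -1.31 ± 0.296, adjusted p = 0.0376). The first result was lost in 7 and the second in 8 of the 9 leave-one-out fits. The share called among all tested genes was 3.99% and 4.79% in these comparisons, in either direction. Thbd, the anticoagulant receptor thrombomodulin, was at 594.61 to 637.86, 591.28 to 807.19 and 545.32 to 592.99 FPKM in young controls, aged controls and knockout-labelled libraries. Nos3, endothelial nitric oxide synthase, was at 7.65 to 9.18, 5.85 to 10.91 and 7.17 to 10.49 FPKM. Neither passed in any comparison (adjusted p = 0.20 to 0.979). The median difference of the 11 was 0.12 with age (-0.009 after quantile normalization) and 0.019 between the groups aged 18 months.

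Of 12 genes listed here as lowered by Klf2 or Klf4, 11 were tested. The place of Adamts5 among them is uncertain. Its differences, 0.159 with age and -0.219 between the groups aged 18 months, enter the medians below, and it was not called. With age 3 of the 11 were called lower, and 4 were called higher in the knockout-labelled libraries against the aged controls. Of all tested genes 3.99% and 4.79% were called in these 2 comparisons, in either direction. Adm, the vasodilator adrenomedullin, fell from 38.24, 36.55 and 43.31 FPKM to 24.06, 20.75 and 25.43 FPKM (difference -0.727 ± 0.103 SE, limma adjusted p = 0.0146). It rose to 44.40, 42.68 and 40.62 FPKM in the knockout-labelled libraries (difference 0.839 ± 0.103, adjusted p = 0.0036), and the latter call held in all 9 leave-one-out fits. Icam1, a leukocyte adhesion molecule, was at 94.20, 115.61 and 126.05 FPKM in aged controls and rose to 222.99, 184.07 and 188.94 FPKM (adjusted p = 0.00666). The chemokine Ccl2 and E-selectin (Sele) fell with age (-1.35 and -0.776, adjusted p = 0.0362 and 0.03) and rose in the knockout-labelled libraries (1.47 and 0.585, adjusted p = 0.0175 and 0.042). The rise of Sele was lost in 7 of the 9 leave-one-out fits and after median-ratio scaling, and its fall was lost without any 1 of the young controls. The fall of Ccl2 was lost in 6 of these fits and its rise without knockout-labelled replicate 1 or 3. Adm fell short of the threshold with age without young control replicate 1 or 3. The list's medians were -0.466 with age and 0.585 between the groups aged 18 months, beside -0.045 and 0.002 over all tested genes. Klf2 itself was highest in the knockout-labelled libraries, where these 4 genes were above the aged controls. The Klf2 difference from the aged controls, 0.26, did not pass (limma adjusted p = 0.15). With age Klf2 rose by 0.23 without overlap, which did not pass either (limma adjusted p = 0.168), while the list's median was -0.466. Whether Klf2 acts on these genes here was not tested.

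**Figure D4:**
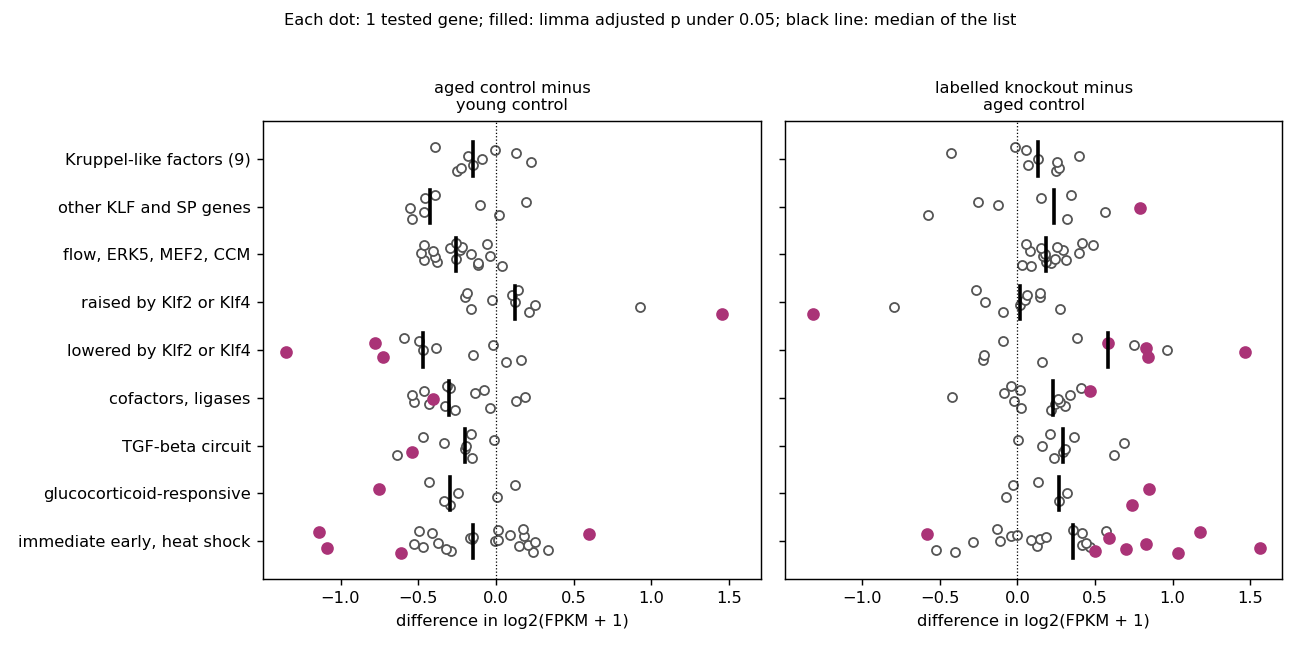
Difference in log2(FPKM + 1) (x axis) of each tested gene in 9 lists (y axis), for aged against young controls on the left and knockout-labelled libraries against aged controls on the right; filled dots passed limma at an adjusted p under 0.05 and black lines are medians. No dot of the Kruppel-like factors is filled, while 3 and 4 of the 11 tested genes listed as lowered by Klf2 or Klf4 are. Of all tested genes 3.99% and 4.79% passed.

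Cofactors of the family and the ubiquitin ligases that degrade it gave 14 tested genes of 15. With age 1 was called and between the groups aged 18 months 1, where 3.99% and 4.79% of all tested genes were. Hdac2, a histone deacetylase, fell with age from 24.56, 25.05 and 24.67 FPKM to 18.22, 19.66 and 17.64 FPKM (difference -0.402 ± 0.0791 SE, limma adjusted p = 0.0362), a call lost in 5 of the 9 leave-one-out fits. Sin3a, the scaffold through which Klf9, Klf10, Klf11 and Klf13 recruit deacetylases, was at 6.33, 6.48 and 5.02 FPKM in aged controls and rose to 8.90, 9.33 and 7.57 FPKM in the knockout-labelled libraries. Its adjusted p of 0.0497 was lost in all 9 of those fits and in 7 of the 10 other alternatives. Of the CtBP genes, whose proteins Klf3 works through, Ctbp1 lay between 52.59 and 69.31 FPKM over the 9 libraries and was not called. Ctbp2 averaged 11.99 FPKM in young controls, 9.33 FPKM in aged controls and 11.86 FPKM in the knockout-labelled libraries. Its aged controls lay below both other groups without overlap, but it was not called either (limma adjusted p = 0.0778 with age and 0.0952 between the groups aged 18 months).

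In the transforming growth factor beta circuit around Klf10 and Klf11, 1 of 9 genes was called, with age, where 3.99% of all tested genes were. The signal transducer Smad2 fell with age from 28.45, 29.99 and 28.85 FPKM to 18.29, 21.64 and 19.32 FPKM (difference -0.539 ± 0.0996 SE, limma adjusted p = 0.0347), and that result was lost in 5 of the 9 leave-one-out fits. Smad7, an inhibitor of the pathway, had means of 6.67, 5.25 and 8.80 FPKM (adjusted p = 0.0617 between the groups aged 18 months). The log2 difference was negative for all 9 genes with age (8 of 9 after median-ratio scaling; median -0.20, beside -0.045 over all tested genes). Against the aged controls it was positive for all 9 in the knockout-labelled libraries (8 of 9 after median-ratio scaling; median 0.296, beside 0.002 over all tested genes), with the ligand Tgfb1 at 0.003 and a ratio of means of 0.999.

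Of the 7 glucocorticoid-responsive genes set beside Klf9, the kinase Sgk1 fell with age from 402.70 to 407.27 FPKM to 210.72 to 263.81 FPKM (limma adjusted p = 0.0371, lost in 6 of the 9 leave-one-out fits). Between the groups aged 18 months Sgk1 rose to 340.22 to 523.45 FPKM (adjusted p = 0.0158, lost without knockout-labelled replicate 1 or 3), and Errfi1, a feedback inhibitor of growth factor receptors, rose from 21.39 to 22.78 FPKM to 34.77 to 41.99 FPKM (adjusted p = 0.00456). Fkbp5 and Per1, further targets of the receptor, and the receptor gene Nr3c1 were not called. The calls were 1 of 7 with age and 2 of 7 between the groups aged 18 months. Of all tested genes 3.99% and 4.79% were called in these comparisons. The mean of Klf9 in the knockout-labelled libraries was 16.1 ± 1.20 FPKM (SD, n = 3) against 17.1 ± 6.92 FPKM in aged controls.

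Several Kruppel-like factors are rapidly inducible, so a list of immediate early genes and heat shock genes was set beside them; handling during a cell sort can induce such genes too. All 25 were tested. With age 3 were called lower and 1 higher, where 3.99% of all tested genes were called in either direction. In the knockout-labelled libraries against the aged controls 7 were called higher and 1 lower, where 4.79% of all tested genes were called. The medians of the list were -0.146 and 0.359, beside -0.045 and 0.002 over all tested genes. Egr2 went from 42.48, 39.00 and 43.81 FPKM in young controls to 19.06, 18.21 and 19.96 FPKM in aged controls (limma adjusted p = 0.00208) and to 60.80, 56.44 and 57.42 FPKM in the knockout-labelled libraries (adjusted p = 1.4e-05). Atf3 and Nr4a2, stress-inducible and nuclear receptor factors, fell with age (-0.61 and -1.14, adjusted p = 0.0401 and 0.0191) and rose in the knockout-labelled libraries (1.04 and 1.18, adjusted p = 0.00385 and 0.0075). Fosl1 rose there as well (0.828, adjusted p = 0.0317), a call lost in 6 of the 9 leave-one-out fits. The falls of Atf3 and Nr4a2 were lost in 6 and 3 of those fits. Jund rose with age and fell in the knockout-labelled libraries (0.602 and -0.584, adjusted p = 0.0355 and 0.0227, lost in 6 and 3 of those fits). The summed level of the 25 genes was 12400 to 14100 FPKM in young controls, 12100 to 15900 FPKM in aged controls and 14300 to 15200 FPKM in the knockout-labelled libraries. Its part in the values of Klf2, Klf4, Klf6 and Klf10 was not tested.

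Profiles over the 9 libraries were compared as the root mean square difference of log2(FPKM + 1) after centring each gene. Klf10 and Klf11 were the most alike of the 36 pairs of members, at 0.0889, followed by Klf3 with Klf11 (0.116) and Klf3 with Klf13 (0.121). Klf2 and Klf4 differed by 0.199. Small differences here partly reflect genes that vary little, since the highest library of Klf3 was only 1.29 times its lowest, against 2.21 times for Klf9.

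On GRCm38 the genes lie on 9 different chromosomes, among them Klf2 (ENSMUSG00000055148) on chromosome 8 from 72319033 to 72321656, Klf4 (ENSMUSG00000003032) on chromosome 4 from 55527143 to 55532466 and Klf6 (ENSMUSG00000000078) on chromosome 13 from 5861482 to 5870394. All are annotated as protein coding. No annotated gene of the table overlaps Klf2, Klf4, Klf6, Klf10 or Klf11. Klf3, Klf7, Klf9 and Klf13 overlap others in span, such as Gm27252 on the opposite strand of Klf13 (2.07 to 5.09 FPKM) and C230096K16Rik on the strand of Klf3 (4.54 to 8.67 FPKM). Whether fragments were assigned by strand is not given in the sources used here, so the values of these 4 are less certain.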

How the data were processed

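RNA of sorted marrow endothelium was sequenced after low-input full-length cDNA amplification, per the labels' protocols. The authors deposited FPKM, 1 column per library. FastQC 0.11.5, STAR and edgeR, and the builds GRCm38 and mm10, are named per the submitters' processing notes, and the counting rules are not stated in any source used. All 52183 identifiers matched GENCODE M21, which gave positions and exon lengths. Depth was the number of fragments for which low values of genes of 60 to 400 bases became whole within a tolerance of 0.1, which held for 99.6% to 99.8% of values.

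Values were tested as log2(FPKM + 1), pseudocount 1, with limma 3.58.1 in R 4.3.3: 1 fit of 9 libraries, a mean per group, 6 residual degrees of freedom and eBayes with a trend. The 11796 genes averaging 1 FPKM or more were tested, with Benjamini-Hochberg adjustment of p across all of these and 0.05 as the threshold. A fold on this scale understates changes of low genes. Intervals cover 95%. The fit was tested on simulated data.

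The members and gene lists were chosen with earlier results of these data known. All members were described, with up to 4 called genes of each list per comparison by size of difference, Mapk7, Mef2c, Thbd, Nos3 and other KLF and SP genes above the filter. Genes most like a called member were to be named, and no member was called. The 19 alternatives are listed in the closing section; limma voom on recovered fragments was added after the data were seen. Promoter windows are from RefSeq (GRCm38.p6), and 8 of 9 members matched. Figures were drawn with matplotlib 3.10.9.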

Additional observations from a re-analysis of the deposited data

How the results depend on the processing

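The 19 alternatives were a pseudocount of 0.1 or of 5, dropping the filter, raising it to 5 FPKM, median-ratio scaling, quantile normalization, robust eBayes, the compared groups alone, the replicate block, each of the 9 libraries left out, and limma voom on recovered fragments. Of the 513 values of members under them, 512 kept their side of the threshold, and 1 did not: quantile normalization called 1 member, Klf4, in labelled knockout against aged controls. No call reversed. Counts over all tested genes depended more on the setting. With no filter the calls were 39 for aged against young controls, 146 for labelled knockout against aged controls and 15 for labelled knockout against young controls, in place of 471, 565 and 25. Fits of the compared groups alone gave 716 and 149 for the first 2, and the filter at 5 FPKM gave 12 for the third. Leaving out 1 library gave 5 to 1039, 197 to 1159 and 11 to 31 calls. After median-ratio scaling the first comparison had 236 higher and 195 lower calls in place of 141 and 330. The replicate block gave 183, 400 and 23 calls and 0 members. Same-numbered libraries did not deviate together (correlations of -0.129 to 0.124), and 3 of 9 libraries correlated best with their own number, so the numbers were not taken as pairs.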

Other observations

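Ratios between members of the same library do not change when a library is scaled by a single factor. Quantile normalization can change them. Of the 36 ratios of 1 member to another, which share members and are not independent, 7 did not overlap between aged and young controls. Between the knockout-labelled libraries and the aged controls 7 did not, and between the knockout-labelled libraries and the young controls 18. Every ratio of Klf2 to another member was among these 18, and the rest contained Klf6 or Klf9. The share of such ratios among other genes was not computed, so the counts stand without a background. The ratio of Klf2 to Klf6, chosen after its values were seen, was 3.43, 2.94 and 3.34 in young controls, 2.79, 3.98 and 3.69 in aged controls, and 5.08, 6.50 and 5.18 in the knockout-labelled libraries. Every labelled knockout library was above every control. The ratio of Klf2 to Klf4, chosen likewise, was 4.08, 3.61 and 3.54 in young controls, 4.32, 5.11 and 5.50 in aged controls and 4.19, 4.57 and 4.71 in the knockout-labelled libraries, so both groups aged 18 months lay above the young controls and overlapped each other.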
